A study of Mus musculus with 2 samples.

Results

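The genes of the mitochondrial ribosome were examined in mTECs, the epithelial cells of the thymic medulla, sorted for high MHC class II, in 1 library labelled Aire-KO and 1 library labelled WT. The set holds every gene row whose symbol starts with Mrpl or Mrps and a digit, which is 77 of the 23997 genes of the deposited table, 48 of them Mrpl and 29 Mrps. Both libraries came from thymi of C57BL/6 mice, each from pooled animals, and polyadenylated RNA was sequenced in pairs with a stranded kit. The sources used here do not give the Aire-KO allele or the number, age and sex of the pooled mice. Medullary epithelial cells present proteins of other tissues to developing T cells, and Aire is the nuclear regulator that drives much of that display.

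Mitochondria keep their own ribosome, which translates the few messenger RNAs made from mitochondrial DNA, all of them for subunits of the oxidative phosphorylation complexes. Its ribosomal RNAs are made inside the organelle, whereas every one of its proteins is encoded in the nucleus, made in the cytosol and imported. Genes named Mrpl encode proteins of the large subunit, which joins amino acids, and genes named Mrps mostly encode proteins of the small subunit, which reads the message. Some of these proteins descend from bacterial ribosomal proteins, and others are found in mitochondria alone. Their genes are used in nearly every cell type and are often described as targets of the transcription factors NRF1, GABPA and YY1.

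The promoters of 4 of these genes show what lies ahead of their start sites. Of the 77 genes, 68 had a promoter in RefSeq, and 15 of them had a single promoter whose last 150 bases before the start are free of annotated exons. Among those 15, Mrpl52 had the highest mean level, Mrpl45 the most matches to the NRF1 core, and Mrps14 and Mrps12 the highest and the lowest ratio between the libraries. The sequences below are the 150 bases before the start from RefSeq on build GRCm38.p6, read along the gene's own strand, and capitals mark matches to the cores searched. They lie at chr14:54426759-54426908 on the plus strand, chr11:97315566-97315715 on the plus strand, chr1:160195065-160195214 on the plus strand and chr7:28741822-28741971 on the minus strand, in the order of the lines.
Mrpl52: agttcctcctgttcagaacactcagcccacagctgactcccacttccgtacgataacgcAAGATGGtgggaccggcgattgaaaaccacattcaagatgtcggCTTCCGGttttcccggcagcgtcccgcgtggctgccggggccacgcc
Mrpl45: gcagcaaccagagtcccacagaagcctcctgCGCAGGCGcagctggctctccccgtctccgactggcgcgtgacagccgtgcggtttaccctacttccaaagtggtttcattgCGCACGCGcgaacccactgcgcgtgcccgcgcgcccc
Mrps14: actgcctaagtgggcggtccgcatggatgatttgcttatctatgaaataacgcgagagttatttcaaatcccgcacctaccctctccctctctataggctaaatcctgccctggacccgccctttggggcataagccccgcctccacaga
Mrps12: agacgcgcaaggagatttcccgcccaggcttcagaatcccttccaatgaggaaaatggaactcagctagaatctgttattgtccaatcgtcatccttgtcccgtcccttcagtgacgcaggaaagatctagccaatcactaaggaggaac
In Mrpl52 the capitals are a YY1 core (AAGATGG) that begins 91 bases before the start and an ETS core (CCGGAAG, here on the other strand), the letters that GABPA binds, 47 bases before it. In Mrpl45 both are the NRF1 core (CGCANGCG), 119 and 37 bases before the start. This start lies inside the annotated span of Mrpl45, which begins at chr11:97314923. The windows of Mrps14 and Mrps12 held none of the letters searched.

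Across full promoters (250 bases before to 50 after the start, both strands searched), these cores were common in the set. The ETS core stood in the promoters of 36.8% of the 68 genes, against 16.9% of the 11828 genes that passed the minimum level and had a promoter. The NRF1 core stood in 29.4% of the set against 16.5%, and the YY1 core in 19.1% against 7.97%. A CRE-type stretch (TGACGTC) stood in 5.88% against 5.61%, and TATAAA in 7.35% against 10.8%. The set's promoters had a median GC content of 58.5% and a median of 21.5 CpG dinucleotides, against 59.3% and 18 over the same genes. Ratios between the libraries were similar with and without these letters. The median log2 ratio was 0.23 for the 20 expressed genes with the NRF1 core and 0.23 for the 47 without, and 0.17 for the 25 with the ETS core and 0.23 for the 42 without. A match describes letters and says nothing about binding in these cells.

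Levels are in FPKM, a fragment count scaled by transcript length and library size, so they can be compared roughly between genes. Ratios are log2 of the level in the library labelled Aire-KO over that in the library labelled WT, after adding 0.1 FPKM to both, and were read for genes whose mean reached 0.5 FPKM. With 1 library per genotype there is no test and no spread between animals. A gene was called higher or lower by size alone, at a 2-fold difference. Intervals of single ratios are exact conditional binomial 95% intervals on fragments estimated from the FPKM values, without the added 0.1, and cover counting error only. In the sorted cells, fewer cells of a type and less RNA per cell cannot be told apart.

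Aire, the targeted gene, went against the label at the level of the transcript. Its transcript was at 640.2 FPKM in the library labelled Aire-KO, against 220.6 FPKM in the library labelled WT, a log2 ratio of 1.54 (1.51 to 1.56). A gene-level value cannot isolate a deleted part, and every direction below rests on the labels as given. The low steps of the FPKM values implied about 54300000 fragments in the library labelled Aire-KO and 47600000 in the library labelled WT. All 12 medullary epithelial genes examined passed the minimum level. Epcam, an epithelial surface marker, had 295.7 FPKM in the library labelled Aire-KO and 363 FPKM in the library labelled WT. H2-Aa, the MHC class II gene with the highest level of the 12, had 11948 FPKM in the library labelled Aire-KO and 8398 FPKM in the library labelled WT. Cd86, a costimulatory ligand, had the lowest, with 15.0 FPKM in the library labelled Aire-KO and 16.0 FPKM in the library labelled WT.

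Mitochondrial ribosomal protein genes were a little more abundant in the library labelled Aire-KO, most of them by small amounts. Of the 76 genes that passed the minimum level, 68 (89.5%) had a log2 ratio above 0, against 53.3% of all 15906 genes. Their median log2 ratio was 0.24, with a range of -0.30 to 1.35, beside a median of 0.05 over all genes. Only Mrpl13 and Mrps30 were called higher and none was called lower, while 7.09% of all genes were called higher and 20.5% lower. At 1.5-fold, 9 genes of the set (11.8%) were past the limit upwards and none downwards, against 19.3% and 26.8% of all genes. The set lay close together. The ratios of 62 of the 76 genes (81.6%) were within 0.5 of 0 on the log2 scale, against 48.4% of all genes, and their SD was 0.28, against 1.44 over all genes. The gap was smaller against genes of like abundance. Over the 12182 genes in the same range of mean levels, 59.2% had a ratio above 0, 54.0% were within 0.5 of 0 and the median was 0.13, and 6.84% were called higher and 14.2% lower. Closeness was not particular to the set. Within 0.5 of 0 were 88.0% of 83 nuclear oxidative phosphorylation genes, and 75% of 28 import genes and of 16 mitochondrial translation factors. The share was lower in 17 genes for expression of mitochondrial DNA (52.9%) and 75 cytosolic ribosomal protein genes (18.7%). With both libraries rescaled to equal FPKM sums, 60 of the 76 ratios were above 0 and their median was 0.16. The minimum was then applied to the rescaled levels, which let 17091 genes pass instead of 15906. The median of those 17091 genes was -0.05. The gap between the set and all genes was 0.22 there and 0.19 on the deposited scale. These gaps rest on different genes, so they do not show a larger offset after rescaling.

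**Figure D1:**
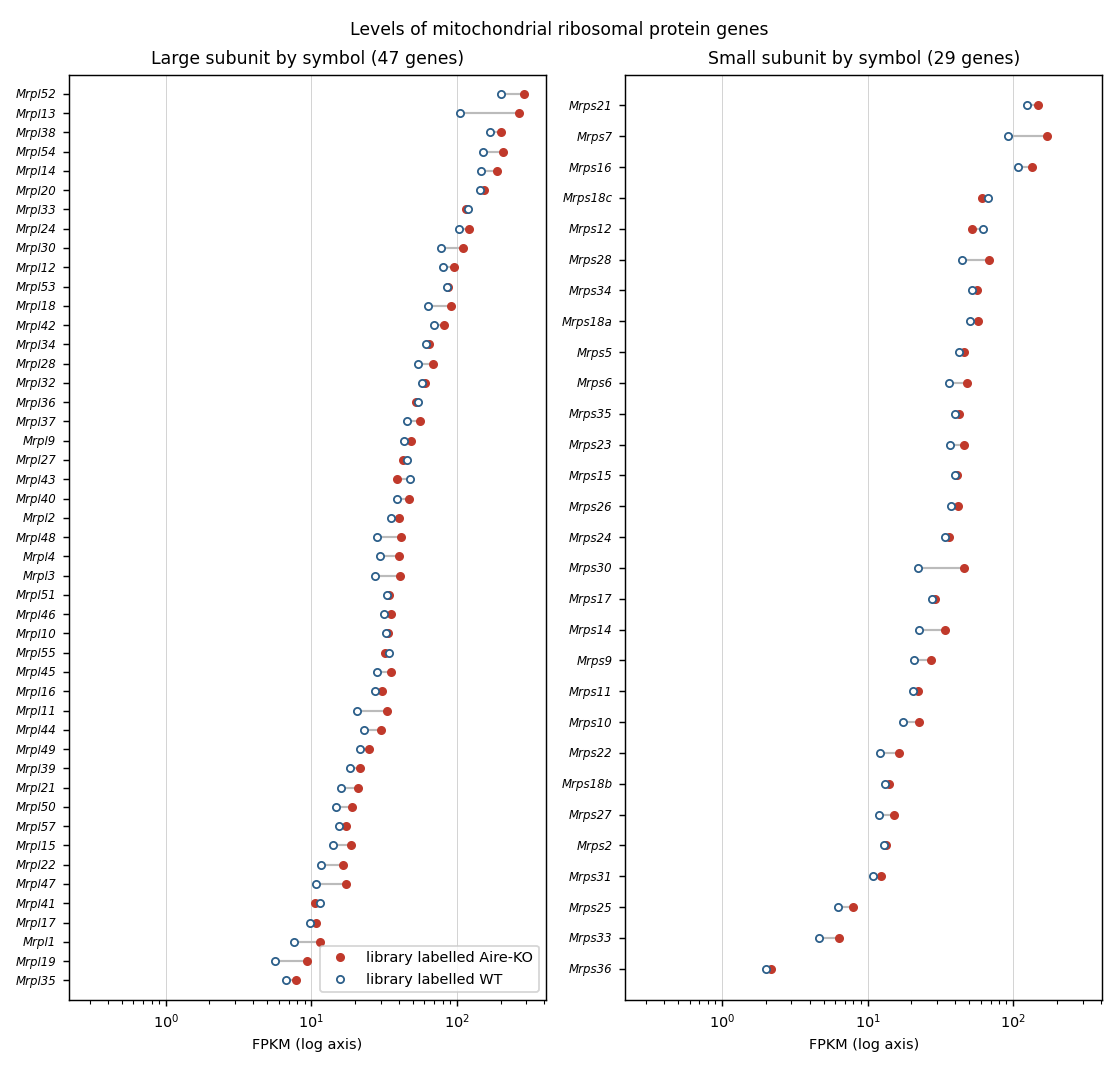
FPKM on a log axis of the 47 Mrpl genes (left) and the 29 Mrps genes (right) that passed the minimum level, ordered by mean. Filled points are the library labelled Aire-KO and open points the library labelled WT, joined by a line, with no replicates. Mrpl13, Mrps7 and Mrps30 have the longest lines, and 8 genes have the filled point on the left.

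The genes kept their order of abundance. Spearman's correlation between the levels in both libraries was 0.976 across the 76 genes, which are not independent replicates. Mean level fell with transcript length across the same genes (Spearman's correlation -0.45), and the part of length in the order of levels was not tested. In the library labelled Aire-KO levels ran between 2.19 and 291 FPKM, and in the library labelled WT between 2.02 and 201 FPKM, with medians of 40.4 and 34.0 FPKM in the same order of libraries. Mrpl52, a large subunit protein found in mitochondria alone, was the most abundant in both, at 291 FPKM in the library labelled Aire-KO and 201 FPKM in the library labelled WT (log2 ratio 0.53, with no interval because its transcript is only 418 bp). Mrpl54, also without a bacterial counterpart, had 207 FPKM in the library labelled Aire-KO and 151 FPKM in the library labelled WT. Mrpl38, whose protein has the fold of phosphatidylethanolamine-binding proteins, had 201 FPKM in the library labelled Aire-KO and 169 FPKM in the library labelled WT. Mrpl14, the subunit-interface protein to which the assembly factor Malsu1 docks, had 189.7 FPKM in the library labelled Aire-KO and 148 FPKM in the library labelled WT. At the other end stood Mrps36, whose protein has since been assigned to the 2-oxoglutarate dehydrogenase complex, with 2.19 FPKM in the library labelled Aire-KO and 2.02 FPKM in the library labelled WT. Mrps33 had 6.32 FPKM in the library labelled Aire-KO and 4.67 FPKM in the library labelled WT, Mrps25 had 7.93 and 6.26 FPKM, and Mrpl35 had 7.91 and 6.71 FPKM in the same order of libraries. Mrpl23, the counterpart of the bacterial protein at the rim of the exit tunnel, missed the minimum, with 0.224 FPKM (about 6.23 estimated fragments) in the library labelled Aire-KO, and was listed at 0 in the library labelled WT. An exact 0 can be a failed estimate, and Mrpl23 is 1 of 4 genes of the set with named pseudogenes, so no fold is given for it.

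Mrpl13 stood apart from the rest of the large subunit. Its bacterial counterpart L13 joins the large subunit early in assembly. The gene (chr15:55534095-55557312, mm10) had 269 FPKM in the library labelled Aire-KO and 105 FPKM in the library labelled WT, a log2 ratio of 1.35 (1.31 to 1.40), and it ranked second in level within the set in the library labelled Aire-KO and ninth in the library labelled WT. Mtbp, which overlaps Mrpl13 on the opposite strand, was far lower, at 5.37 FPKM in the library labelled Aire-KO and 3.47 FPKM in the library labelled WT. In the authors' deposited table Mrpl13 had a p-value of 0.0587 and a q-value of 0.586, from a comparison of these 2 libraries and not of the genotypes. No gene of the set had a q-value under 0.05 in the authors' deposited table, against 70 of all 23997 genes.

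Among the other large subunit genes, the highest ratios belonged to proteins with bacterial counterparts. Mrpl19, at the subunit interface, had 9.31 FPKM in the library labelled Aire-KO and 5.66 FPKM in the library labelled WT (log2 ratio 0.71, interval 0.62 to 0.82). Mrpl11, at the base of the stalk that receives translation factors, had 33.2 FPKM in the library labelled Aire-KO and 20.6 FPKM in the library labelled WT (0.68, 0.62 to 0.75). Mrpl47, the counterpart of bacterial L29 beside the exit tunnel, had 17.2 FPKM in the library labelled Aire-KO and 10.7 FPKM in the library labelled WT (0.68, 0.60 to 0.77). None of these reached 2-fold. Ndufb5 and Actl6a overlap Mrpl47 on the opposite strand and were more abundant than it. Ndufb5 had 135 FPKM in the library labelled Aire-KO and 115 FPKM in the library labelled WT. Actl6a had 48.5 and 33.1 FPKM in the same order of libraries. The part of these neighbours in the value of Mrpl47 was not tested. Mrpl1, the protein of the mobile stalk near the tRNA exit site, had 11.5 FPKM in the library labelled Aire-KO and 7.58 FPKM in the library labelled WT (0.60, 0.48 to 0.73). Mrpl3, whose bacterial counterpart reaches towards the peptidyl transferase centre, had 40.6 FPKM in the library labelled Aire-KO and 27.3 FPKM in the library labelled WT (0.57, 0.52 to 0.62). Mrpl12, the factor-binding stalk protein itself, differed less than Mrpl11 and Mrpl1. It had 95.5 FPKM in the library labelled Aire-KO and 80.8 FPKM in the library labelled WT (0.24, 0.18 to 0.30).

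The large subunit proteins found in mitochondria alone spread around the same middle. Mrpl44, which has a ribonuclease III fold, had 30.1 FPKM in the library labelled Aire-KO and 23.0 FPKM in the library labelled WT (log2 ratio 0.39, interval 0.29 to 0.49). Mrpl45, which ties the ribosome to the inner membrane, had 35.1 FPKM in the library labelled Aire-KO and 28.1 FPKM in the library labelled WT (0.32, 0.25 to 0.39). Its printed window above holds a pair of NRF1 cores, and its full promoter holds 3. Mrpl37 had 56.4 FPKM in the library labelled Aire-KO and 45.8 FPKM in the library labelled WT (0.30, 0.23 to 0.37), and Mrpl57 had 17.4 and 15.6 FPKM in the same order of libraries (0.15, 0.07 to 0.24). Mrpl43 had the lowest ratio of the whole set. It had 39.1 FPKM in the library labelled Aire-KO and 48.1 FPKM in the library labelled WT (-0.30, -0.37 to -0.22). The gene Twnk, listed in these data under its older symbol Peo1, overlaps Mrpl43 on the opposite strand. Peo1 had 5.29 FPKM in the library labelled Aire-KO and 4.62 FPKM in the library labelled WT, and its part in the value of Mrpl43 was not tested. Mrpl41 had 10.7 FPKM in the library labelled Aire-KO and 11.6 FPKM in the library labelled WT (-0.12, -0.34 to 0.10).

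The remaining large subunit genes below 0 encode counterparts of bacterial proteins, and all lay near 0. Mrpl55, the counterpart of L31, had 32.0 FPKM in the library labelled Aire-KO and 34.2 FPKM in the library labelled WT (log2 ratio -0.09). Mrpl27, whose bacterial counterpart reaches into the peptidyl transferase centre, had 43.0 FPKM in the library labelled Aire-KO and 45.6 FPKM in the library labelled WT (-0.08). Mrpl36 had 52.9 FPKM in the library labelled Aire-KO and 54.5 FPKM in the library labelled WT (-0.04), and its interval, like those of Mrpl55 and Mrpl27, included 0. Ndufs6, which overlaps Mrpl36 on the opposite strand, had 113 FPKM in the library labelled Aire-KO and 151 FPKM in the library labelled WT. The part of Ndufs6 in the value of Mrpl36 was not tested. Mrpl33, too short for an interval, had 116 FPKM in the library labelled Aire-KO and 119 FPKM in the library labelled WT (-0.04).

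In the small subunit the gene furthest from 0 is one whose protein does not sit there. Mrps30 is named for the small subunit, but its protein is part of the large subunit in mammalian structures. The gene (chr13:118380110-118387252, mm10) had 45.7 FPKM in the library labelled Aire-KO and 22.3 FPKM in the library labelled WT, a log2 ratio of 1.03 (0.98 to 1.10), just past 2-fold. Without it and the other genes assigned by structure (Mrps18a to the large subunit, Mrps36 to neither), no gene of the 26 in the small subunit passed 2-fold. Mrps7, the counterpart of the bacterial protein that organises the head of the small subunit, came next. It had 169.7 FPKM in the library labelled Aire-KO and 92.5 FPKM in the library labelled WT, a log2 ratio of 0.87 (0.84 to 0.91). Gga3 and Mif4gd overlap Mrps7 on the opposite strand and were themselves higher in the library labelled Aire-KO. Gga3 had 51.0 FPKM in the library labelled Aire-KO and 22.7 FPKM in the library labelled WT, and Mif4gd had 127 and 81.1 FPKM in the same order of libraries. The sources used here do not say whether counting used strand. The part of these neighbours in the value of Mrps7 was not tested.

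The next small subunit genes did not reach 2-fold. Mrps28, the counterpart of bacterial S1, had 68.6 FPKM in the library labelled Aire-KO and 44.3 FPKM in the library labelled WT (log2 ratio 0.63, interval 0.53 to 0.73). Mrps14, shown above for its promoter, had 34.2 FPKM in the library labelled Aire-KO and 22.4 FPKM in the library labelled WT (0.61, 0.54 to 0.67). Mrps22, a protein of mitochondria alone whose defects cause mitochondrial disease in humans, had 16.5 FPKM in the library labelled Aire-KO and 12.2 FPKM in the library labelled WT (0.43, 0.28 to 0.58). At the low end was Mrps12. Its bacterial counterpart S12 sits at the decoding centre, and the gene had 51.8 FPKM in the library labelled Aire-KO and 61.8 FPKM in the library labelled WT (-0.25, -0.36 to -0.15). Mrps2, Mrps15 and Mrps17, all with bacterial counterparts, had log2 ratios of 0.04, 0.05 and 0.07. In the library labelled Aire-KO their levels were 13.3, 41.2 and 29.2 FPKM, against 12.9, 39.8 and 27.8 FPKM in the library labelled WT, and all 3 intervals included 0. Rescaling to equal sums put the ratios of all 3 just below 0.

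Further genes of the set between these extremes, picked after their values were seen, had log2 ratios between 0.08 and 0.52. Mrpl18, whose bacterial counterpart binds 5S ribosomal RNA, had 91.5 FPKM in the library labelled Aire-KO and 63.8 FPKM in the library labelled WT (log2 ratio 0.52, interval 0.45 to 0.58). Tcp1, a chaperonin gene that overlaps Mrpl18 on the opposite strand, had 242 FPKM in the library labelled Aire-KO and 121 FPKM in the library labelled WT, and its part in the value of Mrpl18 was not tested. Mrps16, an abundant small subunit gene, had 136 FPKM in the library labelled Aire-KO and 109 FPKM in the library labelled WT (0.32, 0.29 to 0.35). That interval rests on a transcript length of 2572 bp, which exceeds the gene's RefSeq span, so it may be too narrow. Mrpl46 (chr7:78775341-78783089) and Mrps11 (chr7:78783131-78792988) are neighbours that run in opposite directions, 1 gene for each subunit. Mrpl46 had 35.4 FPKM in the library labelled Aire-KO and 31.5 FPKM in the library labelled WT (0.17), and Mrps11 had 22.04 and 20.6 FPKM in the same order of libraries (0.09). Mrpl20 was abundant and nearly level, with 154 FPKM in the library labelled Aire-KO and 145 FPKM in the library labelled WT (0.08, 0.02 to 0.14).

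The paralogs of bacterial S18 differed little. Only Mrps18c takes the place of S18 in the small subunit, Mrps18b sits elsewhere in it, and Mrps18a is in the large subunit. Mrps18c had 61.3 FPKM in the library labelled Aire-KO and 67.1 FPKM in the library labelled WT (log2 ratio -0.13, interval -0.24 to -0.02). Mrps18a had 57.2 FPKM in the library labelled Aire-KO and 50.9 FPKM in the library labelled WT (0.17, 0.07 to 0.26). Mrps18b was the least abundant, with 14.1 FPKM in the library labelled Aire-KO and 13.2 FPKM in the library labelled WT (0.10, -0.07 to 0.26). Rsph9, which overlaps Mrps18a on the opposite strand, went the other way, with 4.85 FPKM in the library labelled Aire-KO and 14.5 FPKM in the library labelled WT.

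**Figure D2:**
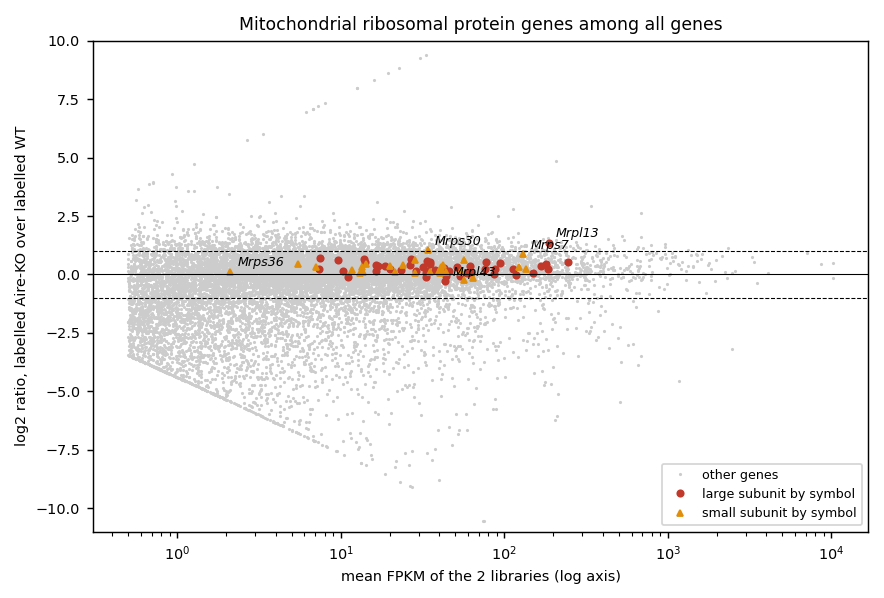
Mean FPKM of both libraries (log axis) against the log2 ratio of the library labelled Aire-KO over the library labelled WT, for the 15906 genes that passed the minimum level (grey) with Mrpl genes as circles and Mrps genes as triangles. Dashed lines mark 2-fold. The set stays in a narrow band just above 0, between -0.30 and 1.35, and 1724 of the 3260 genes called lower lie in its range of means.

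Medians were close between the subunits and, over both subunits, between proteins of bacterial and of other origin. The 47 Mrpl genes had a median log2 ratio of 0.24, with 41 above 0, and the 29 Mrps genes a median of 0.18, with 27 above 0. Assigned by structure, the medians were 0.24 over 49 large subunit genes and 0.21 over 26 small subunit genes. The 45 genes with a bacterial counterpart had a median of 0.24, with 39 above 0, and the 29 without had a median of 0.25, with 27 above 0. Within the Mrps genes, the 11 without a bacterial counterpart, Mrps30 and Mrps36 among them, had a median of 0.32, with all 11 above 0, and the 16 with one had a median of 0.18, with 14 above 0. Mean level and ratio showed no common order (Spearman's correlation -0.06, n = 76 genes).

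By the lengths used here, longer transcripts tended to have higher ratios. Spearman's correlation between transcript length and ratio was 0.28 over the 76 genes, and 0.20 over 12078 genes in the same range of means, the set included. With the set cut by length into 4 groups of 19 genes, the shortest transcripts (405 to 918 bp) had a median log2 ratio of 0.11, with 14 of 19 above 0. The longest (2572 to 7300 bp) had a median of 0.34, with 19 of 19 above 0. Some lengths in this group are doubtful. Those used for Mrps16, Mrps26, Mrpl32, Mrpl51 and Mrpl57 exceed the gene's own RefSeq span. Mrps26, for instance, was taken as 4278 bp but spans chr2:130563757-130565394. The lengths came from GENCODE M21 and may not be those of the counted transcripts, so the order by length is approximate. Counting error was small beside these ratios for most genes. Of 73 genes with an interval, 55 lay wholly above 0, 3 wholly below 0 (Mrpl43, Mrps12 and Mrps18c) and 15 included 0, on a median of 2439 estimated fragments per gene in the library labelled Aire-KO and 1750 in the library labelled WT. Where the length used is too long, the estimated fragments are too many and the interval too narrow, so this tally is approximate.

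Most genes of the set have a single annotated transcript. Of the 8 with more, 6 had at least 5 FPKM in both libraries, and none of these shifted an isoform's share by 25 percentage points, against 5.68% of 2499 genes. The furthest was Mrps10, whose transcript NM_001146211 took 35.1% of its FPKM in the library labelled Aire-KO and 19.8% in the library labelled WT. At the lower levels of Mrps36, NM_001190264 made up 97.8% in the library labelled Aire-KO and 75.6% in the library labelled WT. Transcripts of a gene overlap for most of their length, so shares also carry the error of dividing reads among them.

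The partners of the mitochondrial ribosome were also mostly a little higher in the library labelled Aire-KO. The 6 further subunits listed under other symbols were all above 0, with a median log2 ratio of 0.41. Ict1, also called Mrpl58, a peptidyl-tRNA hydrolase built into the large subunit, had 56.5 FPKM in the library labelled Aire-KO and 45.3 FPKM in the library labelled WT. Chchd1, a small subunit protein, had 137 FPKM in the library labelled Aire-KO and 91.2 FPKM in the library labelled WT, the highest ratio of the 6 (0.59). Of 27 assembly genes, 19 were above 0 (median 0.21) and Ftsj2, which methylates the large ribosomal RNA, was called higher, with 16.6 FPKM in the library labelled Aire-KO and 6.07 FPKM in the library labelled WT. Of 16 mitochondrial translation factors, 14 were above 0 (median 0.26) and none was called. The 20 mitochondrial aminoacyl-tRNA synthetases had 17 above 0 (median 0.30). Lars2, which charges leucine tRNA, was the only one called, with 1173 FPKM in the library labelled Aire-KO and 192 FPKM in the library labelled WT. No other synthetase of the 20 came near that level. Fars2 was next, with 37.3 FPKM in the library labelled Aire-KO and 30.8 FPKM in the library labelled WT. Whether all reads counted for Lars2 came from its messenger RNA was not tested, so its value and its call are uncertain. All 17 genes for expression of mitochondrial DNA were above 0 (median 0.46), and Mterf1b, of the transcription termination family and a near copy of Mterf1a, was called higher at a low level, with 1.43 FPKM in the library labelled Aire-KO and 0.518 FPKM in the library labelled WT. Tfam, which packages and transcribes mitochondrial DNA, had 14.8 FPKM in the library labelled Aire-KO and 9.54 FPKM in the library labelled WT. The 28 import genes had 23 above 0 (median 0.29) and none was called. All of these medians stayed above 0 when the libraries were rescaled to equal sums.

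**Figure D3:**
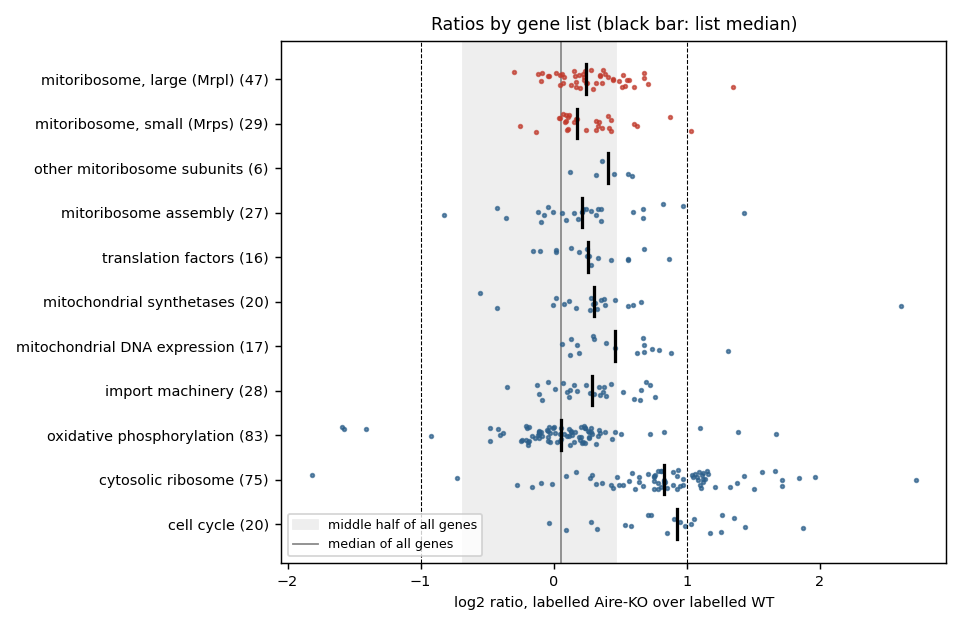
Log2 ratio of the library labelled Aire-KO over the library labelled WT for each gene of 11 lists (points, spread vertically for view), with list medians as black bars, the number of genes in parentheses and dashed lines at 2-fold. The grey band holds the middle 50% of all genes and the grey line their median of 0.05. Mitochondrial ribosomal proteins sit at 0.24 (large) and 0.18 (small), oxidative phosphorylation at 0.05 and the cytosolic ribosome at 0.83.

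The products of this ribosome are joined with nuclear subunits, and the median of those genes lay at that of all genes. The 83 nuclear oxidative phosphorylation genes had a median log2 ratio of 0.05, with 47 above 0, and the median was -0.02 after rescaling to equal sums. Of these, 3 were called higher (Ndufab1, Ndufb2 and Ndufa4l2) and 3 lower (Atp5l, Cox7a1 and Cox4i2). Ndufb2 had 215 FPKM in the library labelled Aire-KO and 81.8 FPKM in the library labelled WT. The other called genes lay far below the list's median levels of 176 and 160 FPKM in the same order of libraries. Atp5l was the lowest of them, with 0.646 FPKM in the library labelled Aire-KO and 1.89 FPKM in the library labelled WT. Genes encoded in mitochondrial DNA were not analysed here. Cytosolic ribosomal protein genes had larger ratios. Their median was 0.83 over 75 genes, with 69 above 0, 27 called higher and 1 (Rpl23a) called lower. Many of them have pseudogenes that share their reads, so single values there are uncertain.

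Regulators of these genes gave no common direction. Gabpb1, the partner of the ETS factor Gabpa, was called higher, with 51.3 FPKM in the library labelled Aire-KO and 24.8 FPKM in the library labelled WT. Gabpa had 9.42 FPKM in the library labelled Aire-KO and 5.81 FPKM in the library labelled WT, and Nrf1 had 10.4 and 9.25 FPKM in the same order of libraries. Mycn was called lower at a low level, with 0.433 FPKM in the library labelled Aire-KO and 1.35 FPKM in the library labelled WT. Esrra was lower but short of 2-fold, with 11.2 FPKM in the library labelled Aire-KO and 21.8 FPKM in the library labelled WT. Yy1 had 33.8 FPKM in the library labelled Aire-KO and 27.7 FPKM in the library labelled WT. Of the 12 regulators, 6 were above 0, 5 were below 0 and Ppargc1b had the same value in both libraries.

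Other groups of genes also differed between the libraries, in both directions. Of 20 cell cycle genes, 19 were above 0 and 8 were called higher, with a median log2 ratio of 0.93 and a summed level of 344 FPKM in the library labelled Aire-KO and 190.3 FPKM in the library labelled WT. Mki67, the proliferation marker, had 11.3 FPKM in the library labelled Aire-KO and 3.01 FPKM in the library labelled WT. Of 10 dendritic cell and macrophage markers, 7 passed the minimum and 6 of these were called lower, with a median of -1.89. The 7 summed to 40.6 FPKM in the library labelled Aire-KO and 58.8 FPKM in the library labelled WT, and no marker of the 10 was at 0. Cd68, a lysosomal protein of macrophages and the only one of the 7 above 0, carried much of these sums, with 33.1 FPKM in the library labelled Aire-KO and 24.1 FPKM in the library labelled WT. The other 6 summed to 7.50 FPKM in the library labelled Aire-KO and 34.7 FPKM in the library labelled WT. Itgam, which encodes CD11b, had 0.614 FPKM in the library labelled Aire-KO and 9.40 FPKM in the library labelled WT. Of 11 thymocyte markers, none at 0, 9 passed and 3 were called lower, with a summed level of 21.2 FPKM in the library labelled Aire-KO and 34.9 FPKM in the library labelled WT. Of 5 cortical epithelial genes, 4 were below 0 and Dll4 was called lower. Dll4 had 5.21 FPKM in the library labelled Aire-KO and 13.4 FPKM in the library labelled WT. Of 4 fibroblast markers, 3 passed, 2 of these were below 0 and none was called. Of 2 red cell markers, Hbb-bs was called lower and the other was nearly level. Hbb-bs had 2.48 FPKM in the library labelled Aire-KO and 15.2 FPKM in the library labelled WT. The 12 medullary epithelial genes had 9 above 0 and none called, with a median of 0.39. Their sum was 27333 FPKM in the library labelled Aire-KO and 20241 FPKM in the library labelled WT, most of it from H2-Aa and H2-Ab1, which encode MHC class II chains. The other 10 summed to 5318 FPKM in the library labelled Aire-KO and 4560 FPKM in the library labelled WT, and Epcam, Krt5 and Cd86 were below 0. The part of cycling cells, of other cell types and of the epithelial share in the offset of the mitochondrial ribosomal genes was not tested.

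Many of these genes share a start region with a neighbour that runs the other way. By GENCODE M21 starts, 18 of the 77 genes (23.4%) had a protein-coding partner on the opposite strand that starts within 1000 bases and does not overlap, against 8.83% of 14542 protein-coding genes that passed the minimum. The partners spread more widely than the genes of the set in these pairs. Of the 18 partners, 11 were above 0, with a median log2 ratio of 0.16, and the 18 genes of the set in these pairs had a median of 0.13. Mrps12 and Sars2, the mitochondrial seryl-tRNA synthetase, start 171 bases apart, and the printed promoter of Mrps12 lies between them. Sars2 was higher in the library labelled Aire-KO, at 8.82 FPKM, against 5.95 FPKM in the library labelled WT (0.56), while Mrps12 was lower there. Mrpl10 and Lrrc46 start 152 bases apart. Mrpl10 had 33.9 FPKM in the library labelled Aire-KO and 32.8 FPKM in the library labelled WT, and Lrrc46 was called lower, with 2.37 FPKM in the library labelled Aire-KO and 4.88 FPKM in the library labelled WT. Mrpl32 and Psma2, a proteasome subunit, start 74 bases apart. Psma2 had 259.9 FPKM in the library labelled Aire-KO and 188 FPKM in the library labelled WT (0.47), whereas Mrpl32 had 60.4 and 57.7 FPKM in the same order of libraries (0.07).

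**Figure D4:**
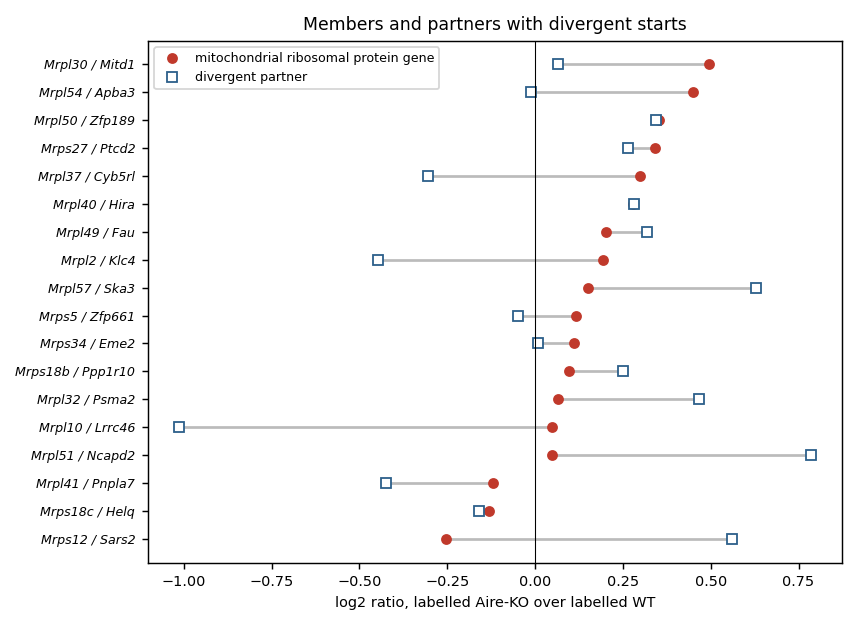
Log2 ratio of the library labelled Aire-KO over the library labelled WT for 18 mitochondrial ribosomal protein genes (filled circles) and the protein-coding partners that start within 1000 bases on the opposite strand (open squares), joined by lines and ordered by the first. Partners range between -1.01 (Lrrc46) and 0.78 (Ncapd2), and Mrps12 lies below 0 while its partner Sars2 lies above.

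Without strand, reads of overlapping genes cannot be told apart. By GENCODE M21, 26 of the 77 genes are overlapped by a protein-coding gene, 4 of them on the same strand, Mrpl13, Mrps30 and Mrps7 among the 26. Without the 26, the remaining 50 genes that passed the minimum had 46 above 0 and a median log2 ratio of 0.24, and none was called.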

How the data were processed

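Polyadenylated RNA of sorted mTECs was measured in 2 libraries, 1 labelled Aire-KO and 1 labelled WT. The authors deposited FPKM values per gene (23997 rows) and per isoform (33295 rows). TopHat2, Cuffdiff and build mm10 are named per the submitters' processing notes. The sources used here do not give versions, the annotation or how libraries were scaled. The deposited p-value and q-value of each gene row are the authors' own and compare these 2 libraries.

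Ratios are log2((FPKM labelled Aire-KO + 0.1)/(FPKM labelled WT + 0.1)), which understates changes of low genes. Calls were made by size alone, at 2-fold, where the mean reached 0.5 FPKM. In 5 gene rows the authors' tool gave no estimate for high coverage (HIDATA), and these were treated as missing. All 77 rows of the set had an estimate in both libraries as deposited.

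Depth was estimated from the deposited FPKM values. In single-isoform genes with transcripts of 2000 bp or more (lengths from GENCODE M21 through its RefSeq links), low values up to 5 fragments fell near whole multiples of 1 step. In the library labelled Aire-KO 78.5% of 461 such values, against 77.9% of 190 in the library labelled WT, lay within 0.1 of a whole multiple, after the step was fitted to them. Exact conditional binomial 95% intervals of log2 ratios rest on these approximate fragments, cover counting error only and were left out for transcripts under 500 bp. They are too narrow where the length used is longer than that of the counted transcript. Without molecular identifiers, fragments need not be independent molecules. The calls and the step fit were tested on simulated data. The simulated libraries held counting error only, with planted changes well past 2-fold. They say nothing about spread between animals or libraries, or about differences close to 2-fold.

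Members and lists were chosen with earlier results of these data known. Genes named are the 5 highest and 5 lowest ratios of each subunit, the 5 highest and lowest levels, those past 2-fold, a list by role, isoform shifts of 25 points or more, and from other lists those past 2-fold or the extremes. Other genes named (overlapping and divergent neighbours, Mrps10, Mrps11, Mrps16, Mrpl18, Mrpl20, Mrpl46, Tfam, Gabpa, Nrf1, Esrra, Yy1, Ppargc1b, Fars2, Ict1, Chchd1, Mki67, Itgam, Cd68, Epcam, Krt5, Cd86, H2-Ab1 and H2-Aa) were chosen after their values were seen. Alternatives were other pseudocounts, minimums, scalings, isoform sums, a 1.5-fold rule, joined rows left out, and, added after seeing the data, the set without overlapped or short genes. Python 3.11.15, pandas 2.3.3, numpy 2.4.6, SciPy 1.17.1 and matplotlib 3.10.9 were used.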

Additional observations from a re-analysis of the deposited data

How the results depend on the processing

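With ratios centred on the median of all genes, 1 gene of the set was called at 2-fold (Mrpl13) instead of 2, and 63 of 76 were above 0. With both libraries rescaled to equal FPKM sums, 1 was called, 60 of 76 were above 0, and the medians were 0.16 for the set and 0.17 for the large subunit. The same rescaling turned the median of the oxidative phosphorylation genes to -0.022. At 1.5-fold, 9 genes of the set were called higher and 0 lower. Without the genes overlapped by a protein-coding gene, 0 were called. Single ratios near 0 changed sign under scaling. Centring gave Mrpl10 -0.0043, Mrpl51 -0.0051, Mrpl53 -0.032, Mrps15 -0.0019 and Mrps2 -0.0092. Rescaling gave Mrpl10 -0.027, Mrpl32 -0.0094, Mrpl34 -0.0060, Mrpl51 -0.027, Mrpl53 -0.055, Mrps15 -0.024, Mrps17 -0.0045 and Mrps2 -0.031. Apart from these, the medians of the set, both subunits, translation factors, synthetases and the cytosolic ribosome kept their sign under each alternative run for them. No paired analysis was possible because there is 1 library per genotype, and for the same reason no replicate could be left out. Intervals cover counting error only, and the spread between animals or libraries is unknown.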
